A study of Mus musculus with 6 samples.

Results

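The RIG-I-like receptors, their mitochondrial adaptor MAVS and a set of direct regulators were examined in B16F10 mouse melanoma cells depleted of OSGEP. The 7 genes were chosen by name, as receptors (Ddx58, Ifih1, Dhx58), adaptor (Mavs) and regulators (Rnf125, Rnf135, Nlrx1), out of 55487 genes listed in the deposited count table. Control cells carried a scramble shRNA (shCtr, n = 3 libraries) and depleted cells carried the Osgep hairpin numbered 2 (shOSGEP, n = 3 libraries), each library coming from a separate lentiviral infection of the same line followed by puromycin selection. Both groups therefore share the vector and the selection, and the depleted group rests on 1 hairpin. OSGEP carries the catalytic site of KEOPS, an enzyme complex that adds the t6A modification next to the anticodon of tRNAs, and the comparison asks whether the genes of cytosolic RNA sensing differ at the transcript level once it is lost.

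RIG-I, MDA5 and LGP2 are cytosolic helicases that bind double-stranded RNA or RNA with an uncapped triphosphate end, as viral RNA often has. RIG-I and MDA5 then contact MAVS on the outer mitochondrial membrane through paired CARD domains, MAVS assembles into filaments, and the kinases TBK1 and IKKε activate the transcription factors that switch on type I interferon. The receptor genes are themselves known interferon-stimulated genes, so their transcripts are commonly used as readouts of an interferon response, whereas Mavs is known to be expressed in most cells.

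The libraries held 18915587 to 29487384 counts. Levels are given as CPM, the counts of a gene relative to its library's total after TMM scaling between libraries. Osgep gave 20.6, 58.6 and 21.8 CPM in the controls, replicates 1 to 3, against 4.28, 0.542 and 5.52 CPM after depletion, lower in every depleted library. The 7 melanocyte lineage markers were present in all libraries, with summed levels of 17038 to 29599 CPM in shCtr and 3551 to 18083 CPM in shOSGEP, lowest in shOSGEP replicate 2. Of 8 leukocyte markers, 6 had no count in any library, and Csf1r had 13 counts in shOSGEP replicate 2 and 0 in the others. Both replicate 2 libraries stood apart in the melanocyte regulator Mitf, at 29.3 CPM in shCtr and 30.6 CPM in shOSGEP against 202 to 339 CPM elsewhere. The other markers did not share this pattern. Pmel was highest in shCtr replicate 2, at 13300 CPM, and lowest in shOSGEP replicate 2, at 485 CPM. Mlana, Dct, Tyr and Sox10 were likewise highest in the former and lowest in the latter. Tyrp1 was lowest in shOSGEP replicate 2 but not highest in shCtr replicate 2. A trend with GC content and transcript length accounted, over all genes, for 61.8% of the variance of log2 deviations of shCtr replicate 2, for 49.97% and 52.7% in the shCtr and shOSGEP libraries of replicate 1, and for 17.3% to 23.3% in the other 3. The part of the marker levels in the results was not tested.

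All 3 receptor transcripts were higher in every shOSGEP library than in any shCtr library, a pattern found in 3.49% of all tested genes. By the fit across all genes, Ddx58 was 3.30-fold, Ifih1 2.06-fold and Dhx58 5.93-fold higher on average. Mavs, Rnf135 and Nlrx1 overlapped between groups, and Rnf125 had too few counts to be tested. After Benjamini-Hochberg adjustment of edgeR's quasi-likelihood test none of the 7 genes passed 0.05, nor did any other (0 of 12669 tested, 0%). Before adjustment 256 genes had a p under 0.05. At an adjusted p under 0.05, DESeq2 called 14 genes and limma-voom with sample quality weights called 3, none of the 7 among them, and limma-voom with weights and a replicate block called 1403, the 3 receptors included. At the limit used by the study, a log2 fold change (Log2FC) beyond 0.5 with an unadjusted p under 0.05, Ddx58 and Dhx58 passed, 2 of 7, whereas 1.59% of all tested genes passed it as higher and 0.426% as lower.

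**Figure D1:**
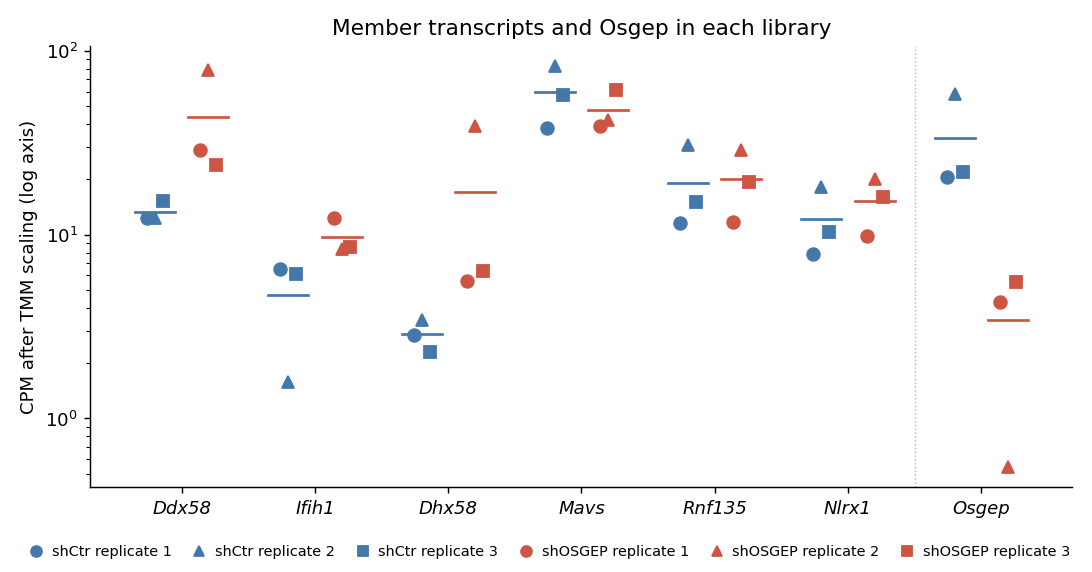
Level of each member transcript and of Osgep in every library, in CPM after TMM scaling on a log axis, with shCtr in blue, shOSGEP in red, 1 symbol per replicate number and a line at each group mean. The 3 shOSGEP points lie above the 3 shCtr points for Ddx58, Ifih1 and Dhx58 and mix with them for Mavs, Rnf135 and Nlrx1. Rnf125 is not drawn because a count of 0 has no place on a log axis.

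Ddx58 (ENSMUSG00000040296, chromosome 4, 40203773 to 40239828 on the minus strand, GRCm38) encodes RIG-I, the sensor of short RNA with triphosphate ends. The start of this gene is shown first because it carries an interferon-stimulated response element (ISRE) core. The core was searched on both strands as GAAA, any 2 bases and GAAA again, in windows from 250 bases before to 50 bases after each RefSeq start (GRCm38.p6), and capitals mark the match. In Ddx58 it lay on the opposite strand, from base 3 to base 12 after the start. The same stretch of Mavs, which held no such match, is printed for comparison. The site of Ifih1 lay on the coding strand, from base 33 to base 42 after the start, and is shown with its flanks only.
Ddx58, chr4:40239796-40239925, minus strand: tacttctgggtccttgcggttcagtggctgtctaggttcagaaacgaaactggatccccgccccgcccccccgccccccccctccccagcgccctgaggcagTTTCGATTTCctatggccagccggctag
Mavs, chr2:131233963-131234092, plus strand: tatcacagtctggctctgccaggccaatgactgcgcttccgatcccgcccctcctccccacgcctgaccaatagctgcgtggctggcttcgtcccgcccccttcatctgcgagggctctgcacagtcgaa
Ifih1, chr2:62646206-62646233, minus strand: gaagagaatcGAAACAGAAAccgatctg

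Of the 7 genes, 5 had a window in the RefSeq table, and the core was found in Ddx58 and Ifih1 and not in the windows of Mavs, Rnf135 and Nlrx1. It was found in 3.44% of all 32851 windows and in 3.99% of the 27025 genes they belong to.

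For Ddx58 the shCtr libraries gave 12.3, 12.3 and 15.3 CPM, on 290, 250 and 331 counts, whereas the shOSGEP libraries gave 28.8, 79.0 and 23.9 CPM, on 618, 2038 and 564 counts. The control libraries lay close together, while shOSGEP replicate 2 stood far above the other depleted libraries. The means were 13.3 ± 1.71 CPM and 43.9 ± 30.5 CPM (SD, n = 3), and the Log2FC was 1.72 (SE 0.554, unadjusted p = 0.0139 and adjusted p = 1.00 in edgeR's quasi-likelihood test). Each depleted library exceeded its same-numbered control, by 1.22, 2.68 and 0.65 on the log2 scale. Without shOSGEP replicate 2 the Log2FC was 1.00 (unadjusted p = 0.0457 in edgeR), and without both libraries of replicate 2 it was 0.93.

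Dhx58 (ENSMUSG00000017830, chromosome 11, 100694884 to 100704271 on the minus strand) encodes LGP2, a receptor that lacks the CARD domains and tunes signalling by RIG-I and MDA5. Controls gave 2.85, 3.44 and 2.31 CPM (67, 70 and 50 counts) and depleted cells 5.58, 39.1 and 6.32 CPM (120, 1009 and 149 counts). Every depleted library exceeded every control library, and again shOSGEP replicate 2 held by far the highest value. The group means were 2.86 ± 0.568 and 17.0 ± 19.1 CPM (SD, n = 3), which the fit put at a Log2FC of 2.57 (SE 0.828, unadjusted p = 0.0140 and adjusted p = 1.00 in edgeR's quasi-likelihood test). Same-numbered libraries differed by 0.97, 3.51 and 1.46 on the log2 scale. Without shOSGEP replicate 2 the Log2FC of Dhx58 was 1.08 and no longer passed the study limit (unadjusted p = 0.0618 in edgeR), while without both replicate 2 libraries it was 1.21 and passed it (unadjusted p = 0.0221 in edgeR). An antisense gene, Dhx58os, overlaps the span of Dhx58 on the opposite strand. The counting was not stated to use the strand, so reads from any stretch covered by both transcripts may not have been separated. Whether their exons overlap was not tested.

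Ifih1 (ENSMUSG00000026896, chromosome 2, 62595798 to 62646255 on the minus strand) encodes MDA5, the sensor of long double-stranded RNA. The control libraries showed 6.50, 1.57 and 6.09 CPM on 153, 32 and 132 counts, while the depleted libraries showed 12.3, 8.37 and 8.53 CPM on 264, 216 and 201 counts. Here the library that stood apart was shCtr replicate 2, whose 32 counts have an exact 95% Poisson interval of 21.9 to 45.2 that covers counting error only. The means were 4.72 ± 2.73 and 9.73 ± 2.21 CPM (SD, n = 3), and the Log2FC of 1.04 (SE 0.614) did not pass the study limit (unadjusted p = 0.127 in edgeR). Ifih1 was higher in 3 of 3 same-numbered comparisons, by 0.92, 2.41 and 0.49 on the log2 scale. With the replicate number as a block, Ifih1 passed the study limit, at a Log2FC of 1.24 (unadjusted p = 0.0492 and adjusted p = 0.741 in edgeR), and without shCtr replicate 2 its Log2FC was 0.62.

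For each receptor the exact permutation test of mean log2 CPM returned a two-sided p = 0.1, which is the minimum for a design of 3 against 3 (n = 3 per group), or 0.233 after Benjamini-Hochberg adjustment over the 7 genes. Genes higher in 3 of 3 same-numbered comparisons made up 17.6% of all tested genes and included 4 of the 7 members, the 3 receptors and Nlrx1. In bulk RNA, a change in each cell and a change in a few cells cannot be told apart.

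Mavs (ENSMUSG00000037523, chromosome 2, 131234063 to 131248025 on the plus strand) measured 38.1, 82.8 and 57.6 CPM in controls against 39.1, 42.2 and 61.3 CPM in depleted cells. The highest value belonged to shCtr replicate 2 and the groups overlapped throughout. Its means were 59.5 ± 22.4 and 47.5 ± 12.0 CPM (SD, n = 3), and the Log2FC was -0.32 (SE 0.447, unadjusted p = 0.489 in edgeR). Between same-numbered libraries Mavs differed by 0.04, -0.97 and 0.09 on the log2 scale, so that the negative average came from replicate 2. Without both libraries of that number its Log2FC was 0.075.

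Rnf135 (ENSMUSG00000020707, chromosome 11, 80183851 to 80199757 on the plus strand) encodes Riplet, the ubiquitin ligase that activates RIG-I on RNA. Its transcript measured 11.6, 30.8 and 15.1 CPM in controls against 11.8, 29.1 and 19.3 CPM in depleted cells. Both replicate 2 libraries were the high ones and the groups overlapped, with a Log2FC of 0.06 (SE 0.550, unadjusted p = 0.910 in edgeR). The direction of Rnf135 changed in 4 of the 9 fits that left out libraries.

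Nlrx1 (ENSMUSG00000032109, chromosome 9, 44252717 to 44268599 on the minus strand) encodes a mitochondrial member of the NLR family that has been described as a brake on MAVS. Levels of 7.86, 18.2 and 10.4 CPM in controls stood against 9.86, 20.1 and 15.95 CPM in depleted cells. Control and depleted values interleaved, although each depleted library lay above its same-numbered control, by 0.33, 0.14 and 0.62 on the log2 scale. The Log2FC of Nlrx1 was 0.33 (SE 0.513, unadjusted p = 0.533 in edgeR), and a gene of uncertain status, Gm10686, overlaps it on the opposite strand. Adding GC and length offsets to the replicate block gave Nlrx1 a Log2FC of 0.58 that passed the study limit (unadjusted p = 0.0416 and adjusted p = 0.539 in edgeR).

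Rnf125 (ENSMUSG00000033107, chromosome 18) encodes a ubiquitin ligase that marks RIG-I, MDA5 and MAVS for degradation. It had 3, 0 and 1 counts in shCtr and 1, 2 and 1 counts in shOSGEP, 8 counts in all. No library exceeded the floor of 3 counts, which equals 0.116 to 0.147 CPM, so Rnf125 was left out by the filter on low counts and no difference was detectable at this depth.

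**Figure D2:**
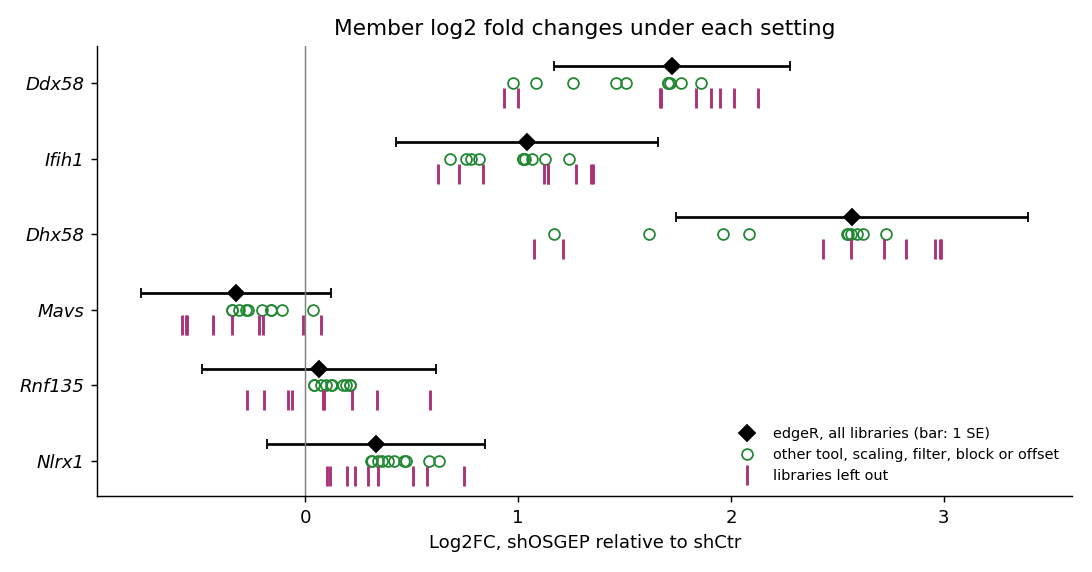
Log2FC of the 6 tested members, shOSGEP relative to shCtr, with edgeR on all libraries as diamonds with 1 SE, other tools, scalings, filters, blocks or offsets as open circles, and fits that left out libraries as ticks. The 3 receptors stay right of 0 in all fits drawn, with Dhx58 between 1.08 and 2.99, whereas Mavs and Rnf135 cross 0.

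Levels of different genes were compared per transcript length, as TPM, the share of a library's transcripts, computed from the counts and the length of 1 representative transcript per gene. TPM was not scaled further between libraries. In shCtr the order of mean TPM was Mavs (32.5 ± 7.41), Rnf135 (15.4 ± 2.53), Ddx58 (6.28 ± 2.55), Nlrx1 (5.40 ± 0.776), Dhx58 (2.06 ± 0.472) and Ifih1 (1.76 ± 1.25), with Rnf125 last at 0.0883 (SD, n = 3). Ddx58 and Nlrx1 did not differ beyond their spread in shCtr, nor did Dhx58 and Ifih1.

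In shOSGEP the order was Mavs (31.8 ± 9.16), Ddx58 (21.8 ± 11.8), Rnf135 (19.8 ± 5.72), Dhx58 (12.9 ± 13.0), Nlrx1 (8.26 ± 1.72) and Ifih1 (3.71 ± 1.36). Ddx58 thus stood between Mavs and Rnf135, with all 3 within the spread of their neighbours, and Dhx58 had a spread as large as its mean. Without shOSGEP replicate 2 this order turned in 2 places, with Ddx58 at a mean of 15.1 TPM below Rnf135 at 17.1 TPM and Dhx58 at 5.44 TPM below Nlrx1 at 7.67 TPM.

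**Figure D3:**
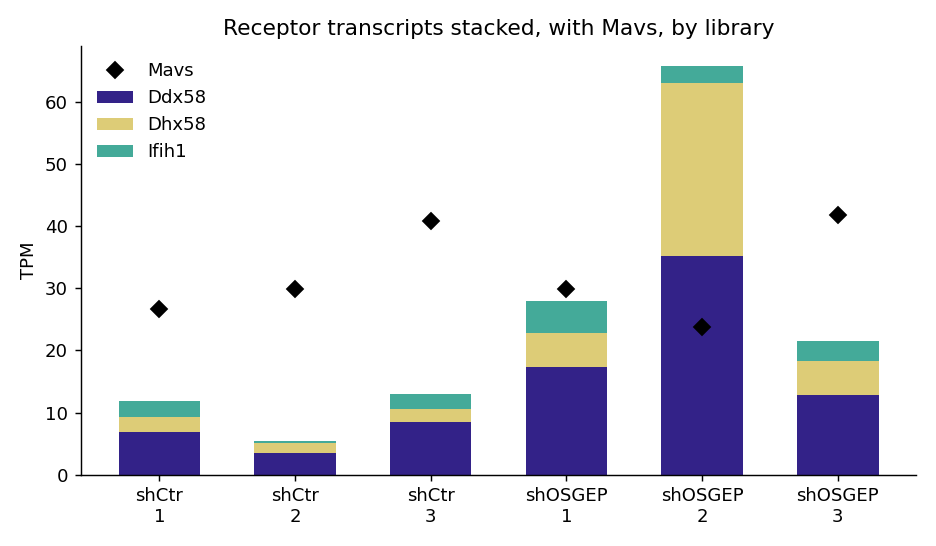
TPM of the 3 receptor transcripts stacked for each library, with the TPM of Mavs as a diamond. The stack is lowest in shCtr replicate 2 (5.41 TPM) and highest in shOSGEP replicate 2 (65.8 TPM), the only library where it exceeds Mavs.

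The receptor transcripts together came to 11.9, 5.41 and 13.0 TPM in shCtr and to 28.0, 65.8 and 21.6 TPM in shOSGEP. Per Mavs transcript this was 0.446, 0.180 and 0.319 in the control libraries and 0.936, 2.76 and 0.516 in the depleted libraries, without overlap. The make-up of the pool varied less than its size: Ddx58 provided 53.5% to 65.6% of it in all 6 libraries. The share of Dhx58 was highest in shOSGEP replicate 2 (42.5%), and the share of Ifih1 was lowest in both replicate 2 libraries (5.89% in shCtr and 4.01% in shOSGEP, against 15.1% to 21.4% in the other 4).

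Since a ratio of a pair of genes within a library needs no scaling between libraries, each receptor was set against Mavs. The GC and length trend differs between genes and was not removed from these ratios or from the sums per Mavs transcript. In shCtr replicate 2 it was 0.40 for Mavs, -0.91 for Ddx58, -1.88 for Ifih1 and 0.54 for Dhx58 on the log2 scale. The share of all genes without overlap in such a ratio was not computed. The log2 ratio of Ddx58 to Mavs counts was -1.63, -2.75 and -1.91 in shCtr and -0.44, 0.90 and -1.36 in shOSGEP, higher in shOSGEP by 1.80 on average without overlap (exact permutation p = 0.1, two-sided, 0.15 after adjustment over the 3 receptors). For Dhx58 the difference was 2.25, also without overlap (exact permutation p = 0.1, 0.15 after adjustment). For Ifih1 it was 1.55 and the groups overlapped, with shOSGEP replicate 3 at -2.84 below shCtr replicate 1 at -2.55 (exact permutation p = 0.2, 0.2 after adjustment). Within replicate numbers the differences were 1.18, 3.65 and 0.56 for Ddx58, 0.93, 4.47 and 1.36 for Dhx58, and 0.88, 3.37 and 0.39 for Ifih1, so that replicate 2 held the highest value for each receptor. Without shOSGEP replicate 2 the group difference was 1.20 for Ddx58 and 1.27 for Dhx58, and without shCtr replicate 2 it was 0.61 for Ifih1.

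The receptor transcripts differ in base composition, and composition moved with the libraries. GC content was 42.8% in Ifih1 and 46.6% in Ddx58, against 53.9% in Dhx58, 53.9% in Mavs, 52.7% in Rnf135 and 57.7% in Nlrx1. In shCtr replicate 2, Ifih1 lay -1.92 from its own mean on the log2 scale, where the trend across all genes for its GC content and length was -1.88. Ddx58 lay at -0.86 there, where the trend was -0.91. Dhx58 lay below its mean in that library although its trend value was 0.54.

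**Figure D4:**
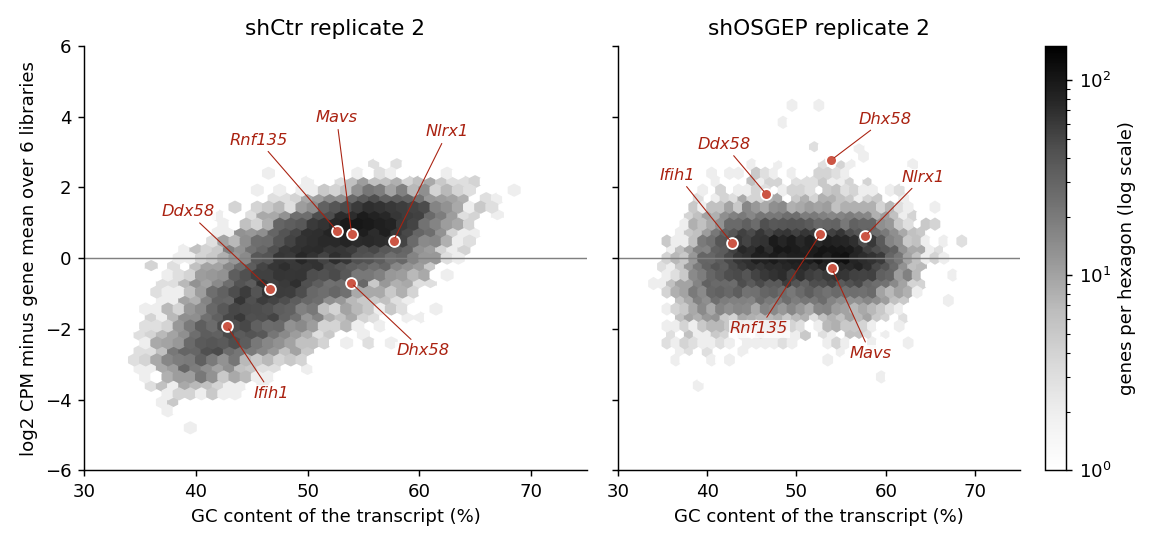
Deviation of log2 CPM from the gene's mean over the 6 libraries against the GC content of its transcript, for all tested genes (grey hexagons, darker for more genes) and the 6 tested members (red), in shCtr replicate 2 on the left and shOSGEP replicate 2 on the right. On the left Ifih1 and Ddx58 lie in the band of all genes at their GC content, and on the right Ddx58 and Dhx58 lie at the upper edge of all genes.

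With the trend removed from each library, Ifih1 came to 3.72, 5.77 and 4.95 CPM in controls against 6.61, 10.5 and 7.39 CPM in depleted cells, still without overlap. Dhx58 likewise stayed apart, at 2.36 to 3.41 CPM in shCtr and 6.41 to 36.4 CPM in shOSGEP. Ddx58 did not: its value in shCtr replicate 2 became 23.1 CPM, above shOSGEP replicate 1 at 21.4 CPM and just below shOSGEP replicate 3 at 23.5 CPM. After this removal 2 of the 7 genes had groups without overlap and shOSGEP higher, as did 6.14% of all tested genes. Fitting the trend as an offset gave a Log2FC of 1.46 for Ddx58 (unadjusted p = 0.0403 in edgeR), 2.59 for Dhx58 (unadjusted p = 0.00775) and 0.78 for Ifih1 (unadjusted p = 0.0543), so the receptors kept their side of the study limit.

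The coding sequences were also read for codons that start with A, the ANN codons that t6A-modified tRNAs decode. They made up 34.6% of the 1025 codons of Ifih1 and 31.6% of the 926 codons of Ddx58, but 26.5% of Dhx58, 24.9% of Mavs, 27.9% of Rnf125, 23.5% of Rnf135 and 19.6% of Nlrx1. Among 21582 mouse genes with a complete coding sequence the median was 27.7%, and Ifih1 and Ddx58 exceeded 93.4% and 80.6% of them, while Nlrx1 exceeded 8.22%. These are properties of the sequences, and the transcript counts carry no measure of translation.

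The other genes of the pathway were taken from 5 lists by role, 81 genes in all. Of the 71 expressed highly enough to be tested, 34 had a positive and 37 a negative Log2FC, with a median of -0.03, equal to the median of -0.03 over all 12669 genes. The study limit was passed by 5 of them, all higher in shOSGEP, beside 1.59% of all tested genes, and by none without shOSGEP replicate 2. Without both libraries of replicate 2 it was passed by 5, Irf5, Ifit1, Ifit3, Ccl5 and Isg15, where 194 of all 12857 genes tested passed it. None of the 71 passed an adjusted p under 0.05 in edgeR.

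Downstream of MAVS, the kinases, TRAF adaptors and transcription factors were all tested, 24 of 24, with a median Log2FC of 0.03. Irf5, an interferon regulatory factor best known from myeloid cells, was the only one past the study limit. It was low throughout, at 0.170, 0.393 and 0.184 CPM in shCtr and 0.465, 2.91 and 1.32 CPM in shOSGEP (Log2FC 2.63, SE 0.821, unadjusted p = 0.0119 in edgeR, and 1.86 without shOSGEP replicate 2). Its counts were 4, 8 and 4 in shCtr and 10, 75 and 31 in shOSGEP. Only the shOSGEP libraries reached the filter's minimum count of 10, so Irf5 was tested only through the group where it was high and its call carries little weight. Irf7, the factor that amplifies interferon production, had a Log2FC of 1.94 (SE 1.34) and overlapped between groups. Its highest values in each group were 1.87 CPM in shCtr replicate 2 and 7.25 CPM in shOSGEP replicate 2. Each depleted library lay above its same-numbered control for Irf7, by 1.30, 1.96 and 2.20 on the log2 scale. The counts of Irf7 were 4, 38 and 3 in shCtr and 9, 187 and 15 in shOSGEP. The differences of replicates 1 and 3, and the fit below without replicate 2, therefore rest on few counts. In shCtr only replicate 2 reached the filter's minimum count of 10, so Irf7 was tested mostly through the shOSGEP group and carries little weight. Without shOSGEP replicate 2 its Log2FC was -0.40, with the high shCtr replicate 2 kept, and without both libraries of replicate 2 it was 1.74. Sting1, the adaptor of cytosolic DNA sensing, was at 190 CPM in shCtr replicate 2 and at 61.2 to 74.7 CPM in the other 5 libraries (Log2FC -0.68, or -0.05 without both libraries of replicate 2). Tbk1 and Irf3, the kinase and factor that MAVS acts through, had Log2FC of 0.06 and -0.18.

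Among ubiquitin ligases, deubiquitinases and their partners, 20 of 22 genes were tested, with 6 positive and 14 negative and a median Log2FC of -0.13. Of all tested genes 47.3% were positive. Without shOSGEP replicate 2, 10 of the 20 were positive (median -0.02), and without both libraries of replicate 2, 8 were (median -0.03). Tnfaip3, which encodes the feedback inhibitor A20, passed the study limit without overlap, at 0.977, 0.885 and 1.01 CPM in shCtr and 1.63, 6.20 and 1.65 CPM in shOSGEP (Log2FC 1.72, unadjusted p = 0.0378 in edgeR), and had a Log2FC of 0.79 without shOSGEP replicate 2. Stub1 and Pcbp1, which act against RIG-I-like receptor signalling, had Log2FC of -0.89 and -0.67 and both were highest in shCtr replicate 2, at 540 and 971 CPM. Without both libraries of replicate 2 these were -0.03 and -0.11. Trim25, a ubiquitin ligase described as an activator of RIG-I, had 2, 0 and 6 counts in shCtr and 2, 1 and 1 counts in shOSGEP and was not tested, whereas Rnf135 had at least 253 counts in each library.

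For receptor cofactors, 10 of 12 genes were tested and none passed the study limit (median Log2FC -0.19). Ppp1ca, a phosphatase subunit that keeps RIG-I and MDA5 ready to signal, was at 1832 CPM in shCtr replicate 2 and at 297 to 650 CPM elsewhere (Log2FC -0.86, or 0.04 without both libraries of replicate 2). G3bp1, a stress granule protein, had a Log2FC of -0.38 and Csnk2b, a subunit of casein kinase, one of -0.55. Both were highest in shCtr replicate 2, and without both libraries of replicate 2 their Log2FC were -0.08 and 0.07. The mitochondrial platform had 9 of 9 genes tested and none past the limit (median -0.14). Its smallest unadjusted p values in edgeR were 0.0872 for the mitotic kinase Plk1 (Log2FC -1.47), 0.113 for the autophagy gene Atg12 (1.03) and 0.231 for the mitochondrial elongation factor Tufm (-0.71). Without both libraries of replicate 2 their Log2FC were -0.31, 0.08 and 0.11.

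Of 14 outputs of the pathway 8 were tested, and all 8 had a positive Log2FC, beside 47.3% of all tested genes, with a median of 1.19. The study limit was passed by 3 of them, without overlap, where 1.59% of all tested genes passed it as higher and 3.49% had no overlap. Ifit1, an interferon-induced RNA-binding protein, was at 9.01, 2.95 and 7.06 CPM in shCtr and 18.1, 39.4 and 12.4 CPM in shOSGEP (Log2FC 1.88, SE 0.634). Ifit3, its partner, was at 11.3, 10.0 and 10.2 CPM in shCtr against 20.4, 36.0 and 16.3 CPM (Log2FC 1.20, SE 0.464). Cxcl10, a chemokine that attracts T cells, was at 7.78, 4.03 and 5.16 CPM against 9.96, 17.4 and 11.2 CPM (Log2FC 1.18, SE 0.494). Each of these 3 genes was highest in shOSGEP replicate 2, and none passed the limit without that library, at Log2FC of 1.27, 0.82 and 0.92. The median of the 8 outputs was then 0.72, with all 8 positive. Without both libraries of replicate 2, 4 outputs passed the limit (Ccl5, Ifit1, Ifit3 and Isg15), where 194 of all 12857 genes tested passed it. Cxcl10 did not pass in that fit (Log2FC 0.71). There 7 of the 8 outputs were positive, with a median of 0.74. The interferon genes Ifnb1, Ifna4, Ifnl2 and Ifnl3 had 0 counts in all 6 libraries. The exact 95% Poisson interval of a count of 0 reaches 3.69 counts, so a low level may have been missed. The floor of 3 counts equals at most 0.147 CPM in these libraries.

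**Figure D5:**
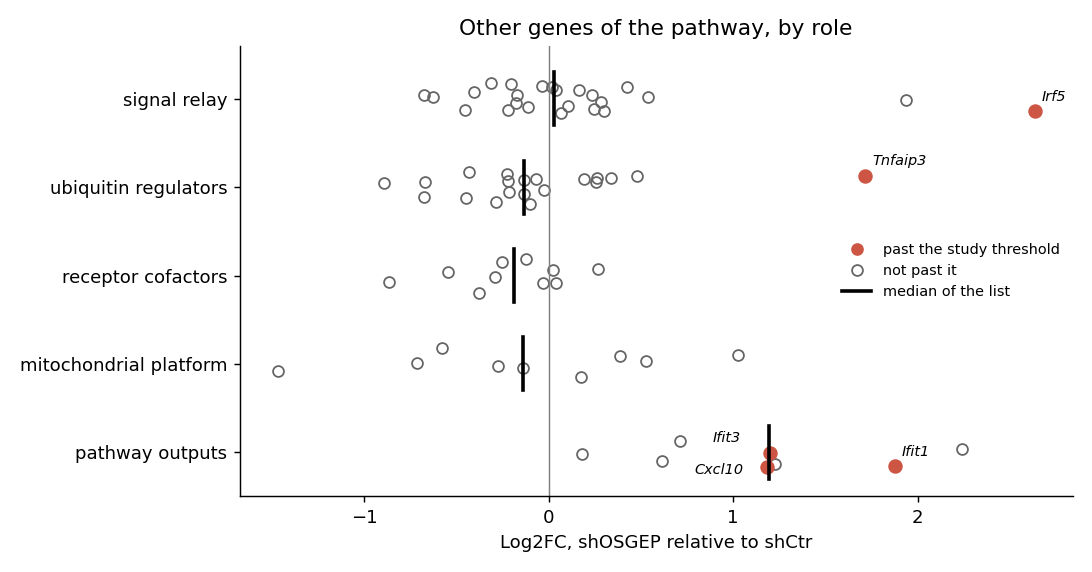
Log2FC of the 71 tested pathway genes, shOSGEP relative to shCtr, grouped in 5 roles, with genes past the study limit filled in red and a bar at each median. The outputs lie right of 0 with a median of 1.19, and the medians of the other 4 groups lie between -0.19 and 0.03.

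Finally, the pattern of Ddx58 across the 6 libraries was compared with that of 10972 genes with a mean of at least 50 counts, as the mean absolute difference of log2 CPM after centring each gene on its mean. The closest were Prx (0.103), Hoxb9 (0.117), C1ra (0.156), Axl (0.159) and Atf4 (0.169), where the median over all these genes was 0.901. Hoxb9 was at 14.0, 12.0 and 18.1 CPM in shCtr and 33.0, 83.7 and 33.9 CPM in shOSGEP, and Atf4, which drives the integrated stress response, at 280, 245 and 263 CPM against 489, 1210 and 481 CPM. Axl, a receptor tyrosine kinase, was at 8.95 to 12.6 CPM against 18.2 to 85.4 CPM. Among the members, Dhx58 was nearest to Ddx58, at 0.403 with 173 other genes closer, followed by Nlrx1 at 0.646 (1411 closer), Rnf135 at 0.711 (2211 closer), Ifih1 at 0.823 (4012 closer) and Mavs at 0.952 (6459 closer).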

How the data were processed

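Gene counts of 3 shCtr and 3 shOSGEP libraries of B16F10 cells (polyA RNA, paired reads) were used. The authors trimmed reads with TrimGalore, aligned them to GRCm38 with STAR 2.6.1d and quantified genes with Salmon 1.4.0, and the deposited table holds Salmon's estimated counts for each Ensembl gene, as whole numbers, neither normalized nor filtered. Salmon divides reads shared between transcripts by likelihood. The annotation release is not given in the sources used here.

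Genes were kept by filterByExpr (minimum count 10, minimum total 15), which left 12669 genes and 6 of the 7 members, scaled by TMM and tested with edgeR 4.0.16 (R 4.3.3, quasi-likelihood F-test, two-sided, no block, Benjamini-Hochberg over all genes tested). SE is Log2FC over the square root of F. Log2 values for permutation tests and ratios used a prior count of 0.5. Scripts were tested on simulated data. Members, lists, tests and alternatives were chosen with earlier results of these data known. The genes named beside the members were Osgep, the 3 with the smallest p per list and the 5 most like Ddx58; Tbk1, Irf3, Trim25 and untested interferon genes were added after their values were seen. Alternatives were DESeq2 1.42.0, limma 3.58.1 voom with sample quality weights, other scalings and filters, a replicate block, offsets for GC content and length (natural splines with 5 and 3 degrees of freedom), a stricter limit and leaving out libraries. GENCODE M21 (GRCm38) matched 55141 of 55487 identifiers and gave positions, lengths, GC content and coding sequences, from the transcript with the longest complete coding sequence of each gene (the longest transcript otherwise). Libraries come from separate infections, and p-values measure the spread between libraries. In the main fit that spread takes in the GC and length trend as well as differences between infections. A second promoter motif is not reported here.

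To check whether replicate numbers pair libraries, deviations from the group mean were correlated over genes between same-numbered libraries: 0.811, 0.557 and 0.196 for numbers 1, 2 and 3, each above 0.1, so the numbers were taken to pair the libraries. The highest value between different numbers was 0.491, for shCtr replicate 3 and shOSGEP replicate 1, which is above the 0.196 of number 3. A value above 0.1 therefore does not settle the pairing, and the labels do not say what a number marks. The main fit used no block, and fits with a replicate block are given as alternatives.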

Additional observations from a re-analysis of the deposited data

How the results depend on the processing

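No member passed an adjusted p under 0.05 in edgeR under any scaling, filter, block, offset, an adjusted p limit of 0.1 or left-out library, nor in DESeq2 or limma-voom with quality weights. Limma-voom with quality weights and a replicate block called 3 members, Ddx58 (Log2FC 1.08), Ifih1 (0.81) and Dhx58 (1.17), among 1403 genes, and Osgep (-2.23), which DESeq2 also called (-3.32). The cause was not tested here or below. At that adjusted limit the replicate block alone moved no call, and of the member calls at the study limit only that of Ifih1, with 3 members past it.

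Past the study limit there were 4 members with GC and length offsets and the replicate block, and 1 to 2 when libraries were left out. All genes past it numbered 560 with limma-voom and quality weights, 599 with no filter (more genes tested), 667 with offsets, 831 with offsets and block, 1442 with limma-voom, weights and block, and 67 to 453 when libraries were left out, with 67 without shOSGEP replicate 2. Pathway genes past it numbered 10 with offsets and block, 12 with limma-voom, weights and block, and 0 to 7 when libraries were left out, with 1 without shCtr replicate 3 and 2 without both libraries of replicate 3. Mavs turned positive with limma-voom, weights and block (0.037) and ranged from -0.58 to 0.075 when libraries were left out. Rnf135 ranged from -0.27 to 0.58 in those fits. Limma-voom with quality weights and no block gave a Log2FC of 0.98 for Ddx58, 0.68 for Ifih1 and 1.61 for Dhx58. Ddx58, Ifih1, Dhx58 and Nlrx1 stayed positive in all 19 alternatives, from 0.93 to 2.13, 0.62 to 1.35, 1.08 to 2.99 and 0.10 to 0.75. The count of 3 members without overlap was 2 with the GC and length trend removed, an alternative chosen after seeing the data. Leaving out libraries cannot lower that count. The ratios to Mavs kept their direction when libraries were left out, within replicate numbers and with a prior count of 2. Low counts limit Ifih1 in shCtr replicate 2 and Rnf125 in all libraries.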
